A study of Mus musculus with 8 samples.

Results

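The RIG-I-like receptors are cytosolic helicases that recognise RNA carrying features of viral RNA. RIG-I (gene Ddx58) and MDA5 (gene Ifih1) bind such RNA and then, through their caspase recruitment domains, the adaptor MAVS on the outer mitochondrial membrane. LGP2 (gene Dhx58) shares their helicase core but lacks those domains, and it tunes signalling by the other receptors. DDX60 is a helicase described as a cofactor of the receptors, and TRAF3 is a ubiquitin ligase that links MAVS to the kinases that activate interferon transcription. In many cell types the genes of the helicases are themselves induced by interferon.

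These 6 genes were taken by name from the 55367 genes of the deposited count table, and all 6 were found there and passed the filter on low counts. The cells were Neuro2a, an established mouse neuroblastoma line, transfected with plasmids for CRISPR activation, in which a catalytically inactive Cas9 fused to the activator VP64 is brought to a gene by a guide RNA. In the CRISPRa group, 750 ng of a plasmid for the sgRNA went in with 750 ng of one for sadCas9-VP64, and the no sgRNA group received sadCas9-VP64 without a guide, in an amount the labels do not give. Both groups thus carried the activator, and the guide and the added plasmid cannot be told apart as sources of a difference. Counts of poly(A)-enriched RNA were analysed for 3 libraries of each group: replicates 2, 3 and 5 of CRISPRa, and replicates 2, 3 and 4 of no sgRNA. Nothing in the labels says that the replicates came from separate cultures, so the p-values measure the spread between these samples, which may be technical.

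Total counts ran from 29739422 to 34248514 per library. CRISPRa replicate 5 and no sgRNA replicate 4 stood apart within their groups: the chi-square per degree of freedom over genes was 17.1 and 18.7 against the other CRISPRa libraries and 15.3 and 18 against the other no sgRNA libraries, while the libraries numbered 2 and 3 gave 4.88 and 6.28. Scn2a, the gene named in the series' title, had means of 7.81 ± 0.714 CPM in CRISPRa and 5.61 ± 1.31 CPM in no sgRNA libraries (SD, n = 3), a difference that did not pass the threshold (log2 fold change 0.48, SE 0.19, edgeR adjusted p 0.0899). The 8 sympathoadrenal markers chosen for this line were all detected. Their summed level was lower with CRISPRa, 1290 to 1510 CPM against 1560 to 1710 CPM, and the summed level of 5 fibroblast markers was lower too, 14.6 to 21.4 CPM against 28.6 to 32.4 CPM. The part of these shifts in the results on the sensing genes was not tested. The 6 macrophage and leukocyte markers summed to at most 1.13 CPM in any CRISPRa library and 1.18 CPM in any control library, and Adgre1 and Itgam had 0 counts in every library.

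Short stretches near the start sites of 4 of the genes are shown. Those of Ddx58 and Ifih1 were cut around their match to the motif given below. Those of Ddx60 and Mavs are the 70 bases before the start, so the stretches differ in part by this choice. A link between a match and a change with CRISPRa was not tested. RefSeq promoter windows on GRCm38.p6, from 250 bases before to 50 bases after the start, were matched for 5 of the 6 genes, all but Dhx58. The core of the interferon-stimulated response element, taken as a GAAA followed by any 2 bases and another GAAA, was searched on both strands. Capitals mark a match; in Ddx58 the match lies on the opposite strand, so its reverse complement is what is printed. All lines read 5′ to 3′ on the gene's own strand.
Ddx60 (chr8:61928017-61928086, plus strand, bases -70 to -1): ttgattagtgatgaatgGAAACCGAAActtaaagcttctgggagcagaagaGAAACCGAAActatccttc
Ddx58 (chr4:40239806-40239835, minus strand, bases -10 to 20): gccctgaggcagTTTCGATTTCctatggcc
Ifih1 (chr2:62646206-62646235, minus strand, bases 21 to 50): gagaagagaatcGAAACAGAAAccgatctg
Mavs (chr2:131233993-131234062, plus strand, bases -70 to -1): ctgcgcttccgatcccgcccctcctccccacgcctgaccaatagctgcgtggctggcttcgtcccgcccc

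The window of Ddx60 held 2 matches, from base -53 to -44 and from base -19 to -10, with the same 10 letters in both. Those of Ddx58 and Ifih1 held 1 match each, from base 3 to 12 and from base 33 to 42 after the start. The windows of Mavs and Traf3 held none. Of all 32851 RefSeq windows of the same length, 3.44% held at least 1 match and 0.225% held at least 2. A second interferon-linked motif, the gamma-activated site, taken as TTC, any 3 bases and GAA, reads alike on both strands and occurs in 8.30% of all windows. It was in none of the 5. A match is a run of letters and was not tested as a binding site.

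The question of the comparison was whether the RNA-sensing genes differed between cultures with and without the guide plasmid. All 4 helicase genes rose with CRISPRa, from about 10-fold for Dhx58 to about 50-fold for Ddx60. Mavs fell by a small amount, and Traf3 did not pass the test. Across all 15117 genes tested, 18.7% were called changed at an adjusted p under 0.05, 9.47% as higher and 9.25% as lower, and the groups did not overlap for 36.4%. Of the 6 genes, 4 were called higher and 1 lower, and the groups did not overlap for these 5. Counts are of bulk RNA, so more cells carrying a transcript and more transcript per cell cannot be told apart. Ddx60, with 8 to 12 counts in the no sgRNA libraries, passed the low-count filter through its CRISPRa libraries, so no weight is put on the number of genes called.

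**Figure D1:**
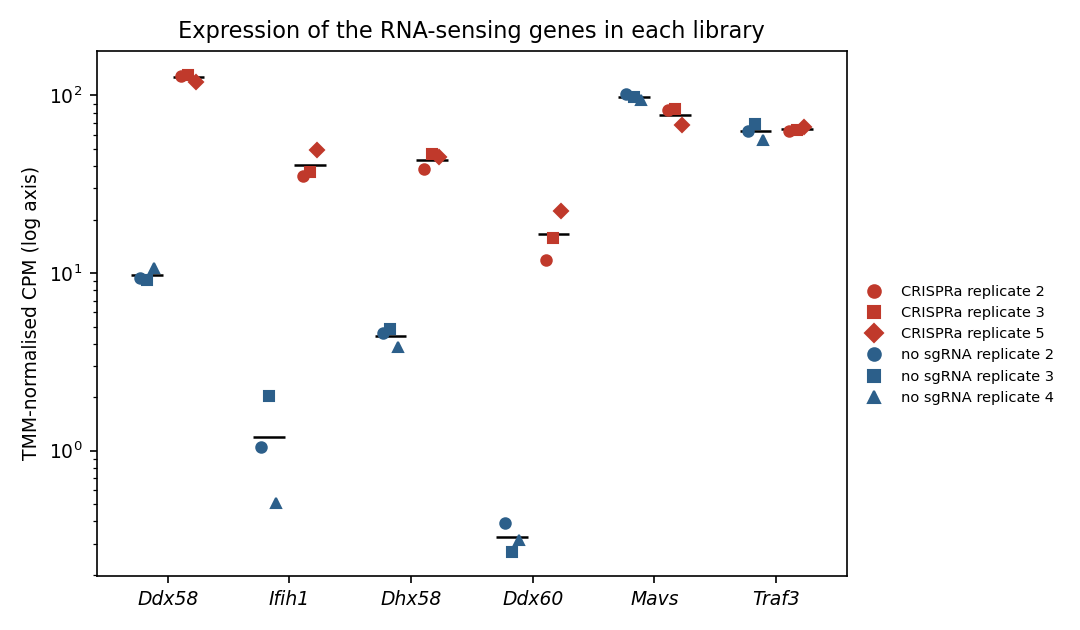
TMM-normalised CPM (log axis) of the 6 genes in each of the 3 no sgRNA libraries (blue) and 3 CRISPRa libraries (red); the marker shape gives the replicate number and the horizontal line the group mean. The 4 helicase genes are higher in every CRISPRa library, Mavs is lower in every CRISPRa library, and the groups overlap for Traf3.

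Ddx58 (chromosome 4, 40203773 to 40239828, minus strand) encodes RIG-I, which binds short RNA with a 5′ triphosphate end. Its level, in CPM after TMM scaling of the libraries, was 129, 131 and 120 in CRISPRa replicates 2, 3 and 5. In no sgRNA replicates 2, 3 and 4 it was 9.41, 9.19 and 10.7. Every CRISPRa library lay far above every no sgRNA library, and the libraries of a group lay close together, with coefficients of variation of 4.68% and 8.23%. Expressed as log2, the fold change was 3.70 (SE 0.088), or 12.96-fold, 95% interval 11.4 to 14.8, at an edgeR adjusted p of 1.67e-13. Of all tested genes, Ddx58 had the log2 fold change of rank 63 from the top.

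Ifih1 (chromosome 2, 62595798 to 62646255, minus strand) encodes MDA5, which binds long double-stranded RNA. It was at 35.1, 37.2 and 49.5 CPM in CRISPRa replicates 2, 3 and 5. Without the guide it was at 1.05, 2.02 and 0.505 CPM in replicates 2, 3 and 4. The groups were far apart, but the no sgRNA libraries were spread over a 4-fold range. That spread was wider than counting error: the exact Poisson 95% intervals of no sgRNA replicates 3 and 4, which cover counting error only, were 1.36 to 2.88 CPM and 0.218 to 0.996 CPM. The fitted change was 5.10 on the log2 scale (SE 0.27), or 34.3-fold, 95% interval 23.1 to 50.9, at an edgeR adjusted p of 2.13e-09. On the 4 libraries numbered 2 and 3 alone it was 4.56, and leaving out no sgRNA replicate 3 or 4 set the ends of its range over single omissions, 5.71 and 4.73; the call held in each.

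Dhx58 (chromosome 11, 100694884 to 100704271, minus strand) encodes LGP2. It was at 38.6, 46.7 and 45.0 CPM in CRISPRa replicates 2, 3 and 5. Without the guide it was at 4.59, 4.82 and 3.85 CPM in replicates 2, 3 and 4. The groups did not overlap, and its log2 fold change of 3.30 (SE 0.12), 9.82-fold with a 95% interval of 8.18 to 11.8, was the smallest of the 4 helicase genes (edgeR adjusted p 2.90e-11). An annotated gene on the opposite strand, Dhx58os, covers 4.31% of its exonic bases, and use of strand in the counting is not given in the sources used here. Dhx58os itself had at most 7 counts in any library.

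Ddx60 (chromosome 8, 61928087 to 62038244, plus strand) was close to the limit of detection without the guide. The no sgRNA libraries gave 12, 8 and 10 counts, in the order of replicates 2, 3 and 4, and CRISPRa replicates 2, 3 and 5 gave 408, 516 and 722. On the CPM scale these were 0.393, 0.269 and 0.316 against 11.8, 15.8 and 22.3. The groups did not overlap, and CRISPRa replicate 5 stood highest of all. Its log2 fold change was 5.65 (SE 0.29), 50.3-fold with a 95% interval of 32.8 to 77.3 (edgeR adjusted p 1.68e-09).

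Mavs (chromosome 2, 131234063 to 131248025, plus strand) encodes the adaptor on which the receptors converge. It was at 82.9, 83.5 and 67.7 CPM in CRISPRa replicates 2, 3 and 5. Without the guide it was at 102, 98.2 and 94.6 CPM in replicates 2, 3 and 4. Every CRISPRa library lay below every no sgRNA library, and CRISPRa replicate 5 lay well below the other CRISPRa libraries. Mavs fell by 0.33 on the log2 scale (SE 0.083; edgeR adjusted p 0.0113), to 0.793 of its level without the guide, with a 95% interval of 0.702 to 0.897. Without CRISPRa replicate 5 the log2 fold change was -0.23 (adjusted p 0.0385). Many genes fell further: counted from the lowest log2 fold change, Mavs had rank 2139 of 15117.

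Traf3 (chromosome 12, 111166370 to 111267153, plus strand) was at 63.4, 64.2 and 66.7 CPM in CRISPRa replicates 2, 3 and 5. Without the guide it was at 63.3, 69.4 and 56.2 CPM in replicates 2, 3 and 4, so the CRISPRa libraries lay inside the range of the no sgRNA libraries. The log2 fold change was 0.040 (SE 0.082, edgeR adjusted p 0.785), with a 95% interval of -0.14 to 0.22. A change of more than 1.16-fold up or to less than 0.910 of the level without the guide lies outside that interval. Its sign was not stable: it was -0.035 without no sgRNA replicate 4 and -0.056 on the 4 libraries numbered 2 and 3, neither past the threshold.

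The authors' deposited table compares 8 samples, the number in the labels, and 28.6% of the 13798 genes with an adjusted p in it were below 0.05. Its log2 fold changes for the helicase genes, of which Ddx60 had the largest, were 5.29 (SE 0.27) for Ddx60, 5.02 (SE 0.37) for Ifih1, 3.78 (SE 0.079) for Ddx58 and 3.20 (SE 0.12) for Dhx58. The authors' deposited table gives Mavs a log2 fold change of -0.31 (SE 0.062) with an adjusted p of 7.91e-06. For Traf3 the authors' deposited table gives -0.0070 (SE 0.070) with an adjusted p of 0.957. The order of the 6 values is the one found in the 6 libraries, and the sets of values cannot be treated as independent. For genes named below as not passing edgeR's test, the authors' values are given only for the most abundant such gene of a list. The authors' deposited table gives adjusted p-values of 0.00262 for Ikbkg, 0.00391 for G3bp1 and 0.0393 for Ddx5. It gives 0.0717 for Traf4 and 0.563 for Pcbp2.

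Levels of different genes were compared as RPKM, which divides CPM by the gene's exonic length in kilobases. That length is the sum over annotated exons and not the length of the transcript expressed, so the order of genes depends on it. Without the guide, Mavs stood at 29.4 ± 1.17 RPKM, Traf3 at 8.57 ± 0.898, Ddx58 at 1.38 ± 0.114, Dhx58 at 1.35 ± 0.154, Ifih1 at 0.146 ± 0.0940 and Ddx60 at 0.0376 ± 0.00721 (SD, n = 3). Only Ddx58 and Dhx58 overlapped between libraries among neighbours in that order. With CRISPRa the order was Mavs at 23.3 ± 2.68 RPKM, Ddx58 at 17.95 ± 0.841, Dhx58 at 13.3 ± 1.31, Traf3 at 8.81 ± 0.234, Ifih1 at 4.97 ± 0.948 and Ddx60 at 1.92 ± 0.606 (SD, n = 3), and no neighbours overlapped. Ddx58 and Dhx58 thus stood below Traf3 in the controls and above it with the guide. Among the tested genes ranked by RPKM, Ddx58 lay at percentile 27.4 without the guide and 79.5 with it, Ifih1 at 4.85 and 48.7, Dhx58 at 27.1 and 72.9, and Ddx60 at 0.635 and 31.2. Mavs lay at 88.3 and 84.7, and Traf3 at 62.2 and 62.7.

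The level of each gene relative to Mavs in the same library does not depend on how libraries are scaled. The summed RPKM of the 4 helicase genes was 0.0951, 0.104 and 0.0987 of the Mavs RPKM in no sgRNA replicates 2, 3 and 4. In CRISPRa replicates 2, 3 and 5 it was 1.44, 1.57 and 1.94 times the Mavs RPKM. In RPKM, helicase transcripts were thus scarcer than Mavs transcripts in every control and more abundant in every CRISPRa library. The ratio of a gene to Mavs depends on the exonic lengths used, but its shift between the groups does not. Ddx58 alone went from 0.0472 ± 0.00554 to 0.774 ± 0.0571 of Mavs (SD, n = 3), a 16.4-fold shift of the ratio. Each shift is the difference of the mean log2 ratios written as a fold, not the ratio of the means. It was 12.4-fold for Dhx58, 49.6-fold for Ifih1 and 63.2-fold for Ddx60. For Ifih1 it ran from 5.15 to 6.13 on the log2 scale over single omissions. The ratio of Traf3 to Mavs was 0.348, 0.350 and 0.448 with CRISPRa and 0.281, 0.322 and 0.270 without the guide. That is a 1.31-fold shift whose groups did not overlap. Mavs itself fell to 0.793 of its level without the guide, and this fall enters all 5 ratios, while Traf3 changed 1.03-fold. Without CRISPRa replicate 5 the shift of the Traf3 ratio was 0.26 on the log2 scale (exact permutation p = 0.2). For each of the 5 ratios the exact two-sided permutation test gave p = 0.1, the smallest that 3 against 3 libraries allows, and 0.122 after Benjamini-Hochberg adjustment over 11 pairs.

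**Figure D2:**
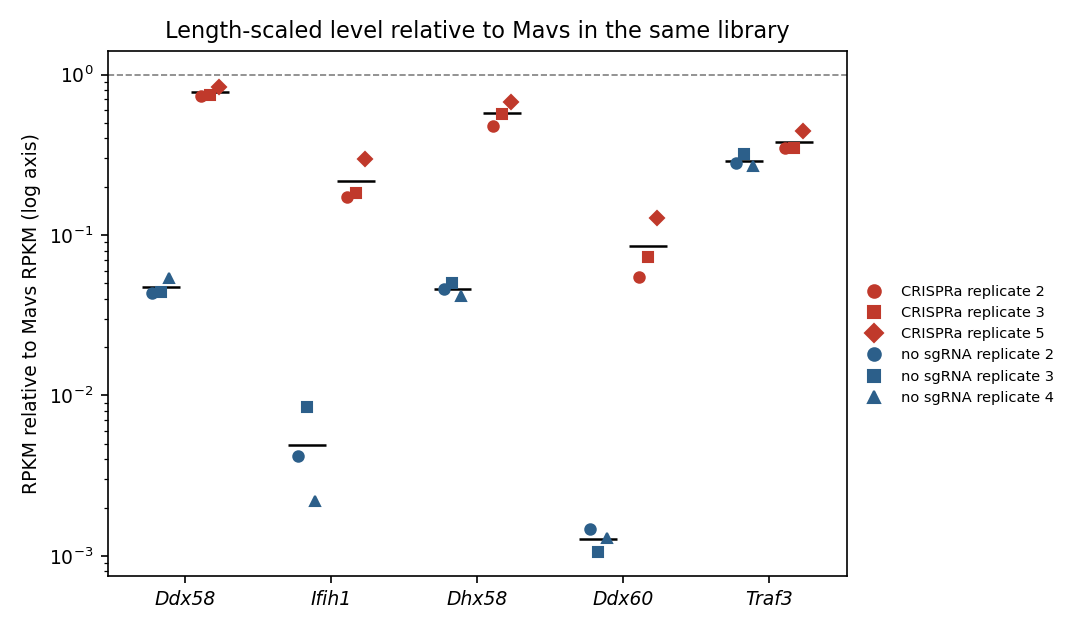
RPKM of each gene divided by the Mavs RPKM of the same library (log axis), for 3 no sgRNA libraries (blue) and 3 CRISPRa libraries (red); marker shapes give replicate numbers, short lines group means, and the dashed line a level equal to Mavs. Ddx58 moves from a mean of 0.0472 to 0.774 of Mavs, and Ddx60 stays lowest in both groups.

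The make-up of the helicase transcripts was compared as well. Ddx58 held 47.6% ± 5.98 of their summed RPKM without the guide and 47.2% ± 3.99 with it (SD, n = 3). Dhx58 held 48.2%, 48.2% and 42.2% in the no sgRNA libraries and 33.0%, 36.4% and 34.9% in the CRISPRa libraries, so its share was lower in each CRISPRa library. The share of Ifih1 was higher with CRISPRa, 11.6% to 15.4% against 4.41%, 8.10% and 2.22%. That of Ddx60 was higher too, 3.82%, 4.64% and 6.51% against 1.56%, 1.02% and 1.30%. The remaining 6 of the 11 pairs, added after the data were seen, compared these genes with each other. By the same measure, the ratio of Ddx60 with CRISPRa was 5.08-fold higher to Dhx58 and 3.84-fold higher to Ddx58. That of Ifih1 was 3.99-fold higher to Dhx58 and 3.02-fold higher to Ddx58. Both are differences of mean log2 ratios written as folds. The ratios of Ddx60 rest on 8 to 12 counts per control library, where the exact Poisson 95% interval of its level in no sgRNA replicate 3, for counting error only, was 0.0734 to 0.690 CPM, so their size is imprecise. Those of Ifih1 rest on 16 to 60 counts per control library and are imprecise too. The log2 ratio of Ddx58 to Ifih1 was 3.38, 2.40 and 4.61 in no sgRNA replicates 2, 3 and 4. In CRISPRa replicates 2, 3 and 5 it was 2.09, 2.03 and 1.49. In the 4 pairs of Ddx60 or Ifih1 with Dhx58 or Ddx58 the groups did not overlap (exact two-sided permutation p = 0.1, adjusted 0.122). The ratio of Ddx58 to Dhx58 differed 1.32-fold between the groups with overlapping libraries (exact permutation p = 0.2, adjusted 0.220), and that of Ifih1 to Ddx60 1.27-fold (exact permutation p = 0.8).

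**Figure D3:**
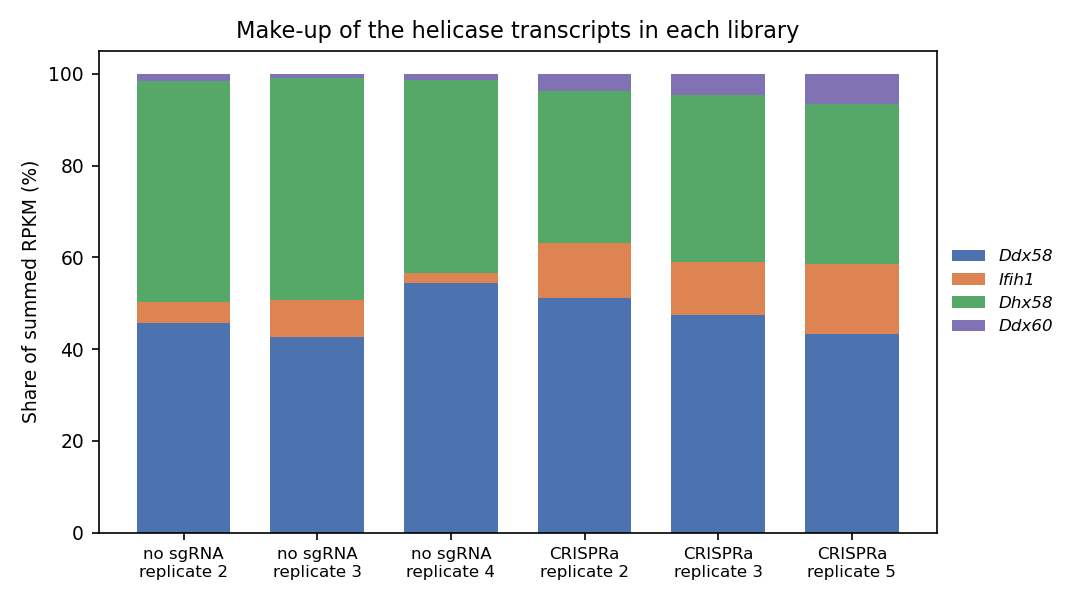
Share of the summed RPKM of Ddx58, Ifih1, Dhx58 and Ddx60 held by each gene (stacked bars, percent) in the 3 no sgRNA and 3 CRISPRa libraries. Ifih1 and Ddx60 take larger shares in every CRISPRa library, Dhx58 a smaller one, and Ddx58 ranges from 42.7% to 54.3% across all 6.

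Within the CRISPRa group the deviations of replicate 5 differed in sign between genes. Replicate 5, the library that stood apart, was the highest of its group for Ifih1 (0.30 above the group mean on the log2 scale), Ddx60 (0.47 above) and Traf3 (0.043 above). It was the lowest for Ddx58, with a deviation of -0.078, and for Mavs, with a deviation of -0.20. For Dhx58 it lay in the middle of the group.

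The other DExD/H-box helicases, RNA helicases with housekeeping roles in splicing, ribosome assembly and translation for the most part, were taken as all other genes named Ddx or Dhx. Of 50 such genes 47 were tested, and 5 were changed, 2 higher and 3 lower, which is 10.6% against 18.7% of all tested genes. Their median log2 fold change was -0.0023, beside -0.0071 over all tested genes, and the values ran from -0.44 to 0.75. Ddx24, a nucleolar helicase, rose from 127 ± 4.98 to 213 ± 6.42 CPM (SD, n = 3), or by 0.75 on the log2 scale (SE 0.063, adjusted p 8.70e-07). Ddx25 rose 1.41-fold, and Ddx11, Ddx23 and Ddx42 fell by 0.44, 0.31 and 0.25 on the log2 scale. The most abundant, Ddx5, was at 1425 ± 14.4 CPM against 1328 ± 3.74 CPM (SD, n = 3). It did not pass edgeR's test (adjusted p 0.240), though it passed in the authors' comparison of 8 samples. The log2 fold changes of the 4 interferon-linked helicases, from 3.30 to 5.65, all lay above the highest of the 47.

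Of 5 tested TRAF genes other than Traf3, adaptors of tumour necrosis factor and innate receptors, edgeR, DESeq2 and limma-voom each called 0 changed, and 1 had an unadjusted edgeR p under 0.05. With 18.7% of all tested genes changed, a count of 0 among 5 says little about the TRAF genes. That gene was Traf4, at 74.0 ± 6.12 CPM against 86.7 ± 7.62 CPM (SD, n = 3; adjusted p 0.0708). The median log2 fold change of the TRAF genes was -0.051. Traf6, a ligase that also binds MAVS, was at 50.2 ± 2.36 CPM and 49.9 ± 0.535 CPM, and its log2 fold change was 0.0078. Traf1 had at most 2 counts in any library and was not tested.

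Regulators of the receptors were compared as a list of 18 genes, of which 16 were tested. Of these, 4 were higher and 2 lower (37.5% changed, beside 18.7% of all tested genes), with a median log2 fold change of 0.010. Trim25, the ubiquitin ligase known for activating RIG-I, averaged 233 ± 7.66 CPM with the guide and 95.3 ± 8.89 CPM without it (SD, n = 3), so it rose by 1.29 on the log2 scale (SE 0.074, adjusted p 6.58e-09). Zc3hav1, which encodes the zinc-finger antiviral protein, rose from 201 ± 13.7 to 410 ± 28.4 CPM (log2 fold change 1.03, SE 0.072, adjusted p 9.38e-08). Rnf125, a ligase that marks RIG-I and MDA5 for degradation, rose 1.40-fold (adjusted p 0.0227), and Ankrd17, a scaffold of the receptors, rose by 0.32 on the log2 scale (adjusted p 0.00812). Prkra, which encodes the RNA-binding protein PACT, fell by 0.41 on the log2 scale (adjusted p 0.00343). Ppp1cc, a catalytic subunit of the phosphatase that acts on the receptors, fell by 0.21 (adjusted p 0.0329); its value is uncertain, since 40.0% of its 50-base words recur in transcripts of other genes. G3bp1, a stress granule protein, was at 397 ± 5.67 against 453.5 ± 33.2 CPM (SD, n = 3). It did not pass edgeR's test (adjusted p 0.0519), though it passed in the authors' comparison of 8 samples. Rnf135, which encodes the RIG-I ligase Riplet, and Zcchc3 had 0 counts in all 6 libraries. They were not detectable at a floor of 3 counts, 0.0876 to 0.101 CPM, and the limit is higher if both mates of a pair were counted.

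Regulators of MAVS formed a list of 16 genes with 15 tested. Of the 15, 2 were higher and 2 lower (26.7% changed, beside 18.7% of all tested genes), at a median log2 fold change of -0.031. Trim14, a mitochondrial adaptor of MAVS signalling, rose to 11.1 ± 2.05 from 4.47 ± 0.762 CPM (SD, n = 3; log2 fold change 1.32, SE 0.18, adjusted p 0.000173). Exons of Nans on the opposite strand overlap Trim14, and 33.9% of its 50-base words recur in other genes' transcripts, so that value is uncertain. Marchf5, a mitochondrial ligase, rose 1.19-fold (adjusted p 0.0129). Rnf5, a ligase known to mark MAVS for degradation, fell by 0.64 on the log2 scale (adjusted p 0.00710), with 24.7% of its exonic bases opposite another annotated gene. Pcbp1, an RNA-binding protein described as promoting MAVS turnover, fell by 0.27 (adjusted p 0.0116), and its paralogue Pcbp2 was at 503 ± 6.42 against 518 ± 28.1 CPM (SD, n = 3; adjusted p 0.687); exons of Map3k12 lie opposite 30.2% of Pcbp2, so its value is uncertain too. Nlrx1, a mitochondrial partner of MAVS, was at 6.53 ± 0.838 against 7.84 ± 0.580 CPM (SD, n = 3), with overlapping groups.

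Signalling proteins downstream of MAVS formed a list of 20 genes with 19 tested. Of the 19, 5 were higher and 0 lower in edgeR's test, at a median log2 fold change of 0.17. That is 26.3% changed, beside 18.7% of all tested genes. Irf7, the interferon-inducible transcription factor of interferon genes, had 4186, 4819 and 5412 counts with CRISPRa and 60, 66 and 62 counts without the guide. Its log2 fold change of 6.15 (SE 0.14, adjusted p 8.58e-14) lay above those of the 4 helicases; the difference was not tested. Irf3, the factor that is activated without new synthesis, was at 28.7 ± 1.81 against 32.5 ± 3.61 CPM (SD, n = 3; adjusted p 0.230). The remaining increases were small. Ikbkb, a kinase of the NF-kB pathway, rose 1.42-fold (adjusted p 0.00181), Tbkbp1, an adaptor of TBK1, 1.36-fold (adjusted p 0.00520), Azi2, another TBK1 adaptor, 1.23-fold (adjusted p 0.00830) and Tbk1, the kinase of IRF3, by 0.27 on the log2 scale (adjusted p 0.0186). Ikbkg, the regulatory subunit NEMO, was at 90.8 ± 2.38 against 80.9 ± 5.41 CPM. It did not pass edgeR's test (adjusted p 0.118), though it passed in the authors' comparison of 8 samples. Ikbke, the inducible relative of TBK1, had 9, 22 and 30 counts with CRISPRa and 9, 4 and 4 without the guide, and was not tested.

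Over these 3 lists together, 50 of 54 genes were tested and 15 were changed, 11 higher and 4 lower, at a median log2 fold change of 0.073. Increases of at least 2-fold numbered 4, those of Trim25, Zc3hav1, Trim14 and Irf7. The lists were chosen with earlier results of these data known, and a list's count is given here as a description beside 18.7% of all tested genes.

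Products that the pathway is known to induce were listed last, as 18 genes. Transcripts of the listed interferon genes were not detected: Ifnb1, Ifnl2, Ifnl3 and all 13 numbered Ifna genes had 0 counts in every library. A floor of 3 counts is 0.0876 to 0.101 CPM per library. That floor takes counts as independent reads, so the limit of detection is higher if both mates of a pair were counted. Among these genes, sequence shared with other genes was measured only for Ifnb1. How far shared sequence affects the counts of the others was not tested. The chemokine genes Cxcl10 and Ccl5 were the 2 tested, and both rose. Cxcl10 averaged 2.14 ± 0.280 CPM without and 49.3 ± 7.55 CPM with the guide (SD, n = 3), and its log2 fold change was 4.53 (SE 0.15, adjusted p 4.54e-12). Ccl5 had 10, 10 and 18 counts without the guide and 458, 432 and 706 counts with CRISPRa, a log2 fold change of 5.27 (SE 0.28, adjusted p 2.59e-09).

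**Figure D4:**
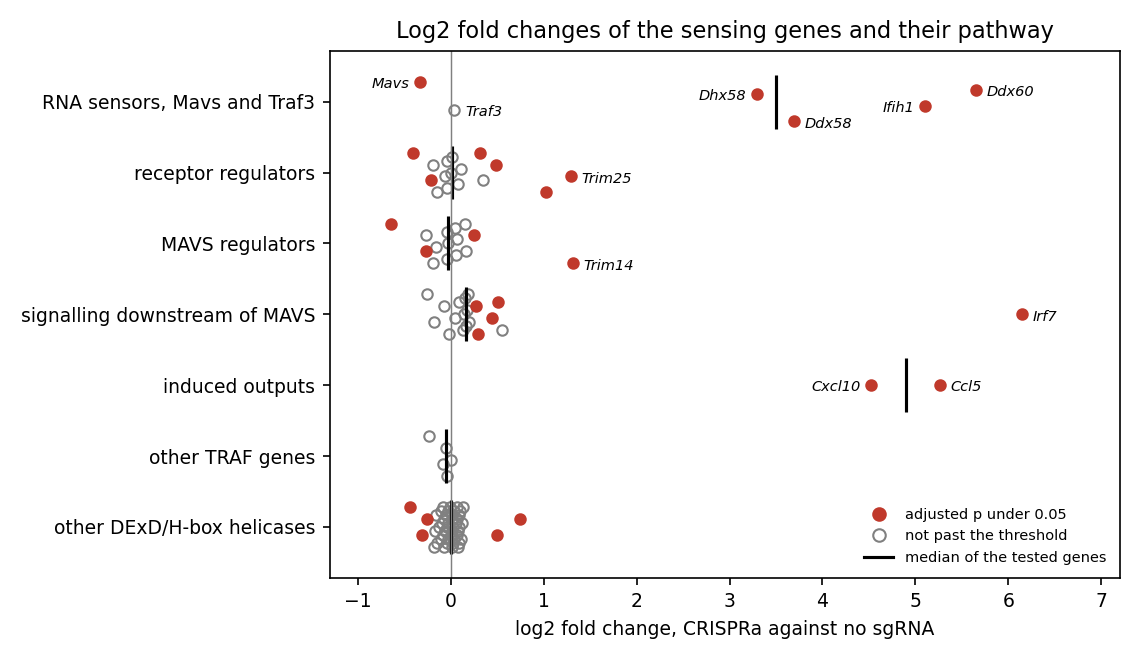
Log2 fold changes (CRISPRa against no sgRNA) of every tested gene of the 6 sensing genes and of the other lists; filled red points passed an adjusted p under 0.05, open grey points did not, and black bars are medians of the tested genes. The 4 helicase genes, Irf7, Cxcl10 and Ccl5 lie at 3.30 or above, and all other listed genes lie at 1.32 or below.

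For each gene, the profiles over the 6 libraries nearest to it were sought among 12852 other genes with a mean of at least 1 CPM, by the root mean square difference of log2 CPM after each gene was centred on its own mean. Ddx58 was nearest to Mx2 (0.23) and Trim12c (0.24), Ddx60 to Apol9b (0.24) and Rtp4 (0.25), and Ifih1 to Gm43197 (0.37) and Trim34a (0.44). Helz2 (0.22) was among the 2 nearest to Dhx58. Of these, Trim12c, Apol9b and Trim34a have 33.7%, 52.3% and 59.7% of their 50-base words in common with transcripts of other genes, and 13.9% of Rtp4 lies in exons of another gene on the same strand, so their values are uncertain. Gm43197 averaged 0.0443 ± 0.0384 CPM without the guide (SD, n = 3), below the floor of 3 counts, so its distance to Ifih1 is uncertain too. Among the 6 genes themselves, Ddx58 and Dhx58 were 0.28 apart and Ifih1 and Ddx60 0.63 apart, while Ddx58 and Ifih1 were 0.98 apart. Mavs was nearest to Snrk (0.033) and Prag1 (0.035), and Traf3 to Adgrl1 (0.024) and Nek9 (0.027), but with small differences between libraries such likeness is common: 344 genes lay within 0.1 of Mavs and 1362 within 0.1 of Traf3.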

How the data were processed

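The authors deposited whole-number read counts per gene with each gene's exonic length, and no normalisation. Per the submitters' processing notes, STAR 2.5.1b, featureCounts, DESeq2 and R 4.1.2 were used with mm10; annotation, strand setting and the treatment of read pairs are not given in the sources used here. Between 73.6% and 75.1% of genes with 1 to 10 counts had an even count, as when both mates of a pair are counted, so Poisson intervals were computed on counts divided by 2. A second deposited table holds the authors' comparison of 20581 genes over 8 samples: per the file headers a signal (mean normalised count), log2 fold changes with standard errors, a Wald score and p-values. The direction of its fold changes (CRISPRa over no sgRNA) was taken from the genes described here, so their signs in it are no separate check.

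Counts of 6 of the 8 labelled samples were analysed; the counts of replicate 1 of CRISPRa and replicate 5 of no sgRNA were not analysed here. Groups came from the sample titles. The test was edgeR 4.0.16 (quasi-likelihood F test, R 4.3.3) with TMM factors, filterByExpr and no covariate, adjusted with the Benjamini-Hochberg method over 15117 genes; SE is the log2 fold change divided by the square root of F, and its 95% interval uses the t distribution with the moderated degrees of freedom. On simulated data for this comparison with 15117 genes, edgeR recovered 87.7% of 4-fold, 81.7% of 2-fold and 68.7% of 1.5-fold changes. It also called 7 unchanged genes. These folds were given to 57, 60 and 83 genes, a far smaller share than the 18.7% called in the data, so recovery there may differ. Alternatives used DESeq2 1.42.0 and limma 3.58.1 among others. Exonic overlap was measured in the deposited coordinates, and shared 50-base words in GENCODE M21 transcripts. March5 of the list was matched under its current symbol Marchf5.

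All 6 genes are reported. In each other list the text names up to 3 changed genes per direction with the largest log2 fold change and the most abundant gene that was not changed, and for each of the 6 genes the 2 nearest profiles, of which 1 is not reported here; Ankrd17, Azi2, Tbk1, Irf3, Ikbke, Nlrx1, Traf6, Traf1, Rnf135, Zcchc3, Dhx58os, Scn2a and the markers were named after their values were seen. The genes and lists were chosen with earlier results of these data known.

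Replicate numbers 2 and 3 occur in both groups. Their deviations from the group means had correlations of -0.0046 and -0.026 across 15117 genes, so the numbers were not taken to pair the libraries.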

Additional observations from a re-analysis of the deposited data

How the results depend on the processing

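The 4 helicase increases kept their direction and their call under all 17 alternatives, or 16 for Ddx60, which was removed when 4 libraries had to reach 1 CPM. Log2 fold changes ran from 3.65 to 3.80 for Ddx58, from 4.56 to 5.71 for Ifih1, from 3.18 to 3.39 for Dhx58 and from 5.35 to 5.86 for Ddx60. Mavs ranged from -0.38 to -0.23 with adjusted p-values from 0.000709 to 0.0474, and at a threshold of 0.01 its value of -0.33 did not pass. Traf3 changed sign without passing: -0.035 without no sgRNA replicate 4 (range over single omissions -0.035 to 0.11), -0.054 with the replicate block on 4 libraries and -0.056 on the same 4 libraries unblocked; the cause was not tested. The block changed no call among the 6 genes. The number of other TRAF genes called was 1 instead of 0 with no low-count filter, with the replicate block, on the same 4 libraries unblocked and at a threshold of 0.1, and from 0 to 1 over single omissions. MAVS regulators numbered 2 at a threshold of 0.01, induced outputs 1 under the CPM filter, which leaves fewer genes, and all changed genes 1417 at a threshold of 0.01, where the threshold is the cause. All 5 ratios to Mavs kept their direction. Depth limits Ddx60 in the controls, at 8 to 12 counts, and every gene at 0.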
